A study of Homo sapiens with 9 samples.

Results

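The genes described here are 47 genes of DNA replication and S phase, taken by name as a list of gene symbols. All 47 symbols matched a gene identifier among the 61487 in the deposited count tables, and all 47 passed the filter on low counts that left 17806 genes for testing. The libraries are RNA-seq of SH-SY5Y, a cycling neuroblastoma cell line of human origin that resembles immature sympathetic neurons. Cells of this line had been kept for 72 h with vehicle (labelled CTN 0 µM), 10 µM citrinin (CTN 10 µM) or 20 µM citrinin (CTN 20 µM). Citrinin is a mycotoxin made by moulds, and the study asked which transcripts it changes in these neuron-like cells. Each dose has 3 libraries, numbered 1 to 3 in the titles, so 9 libraries enter every fit. All groups are a single cell line in the same serum-containing medium and no gene was targeted in any of them.

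Replication starts with licensing in G1, when the origin recognition complex, CDC6 and CDT1 load the ring-shaped MCM2-7 helicase onto DNA, and geminin (GMNN) blocks CDT1 afterwards. CDC45 and the GINS complex then switch the helicase on. Primase with polymerase alpha starts each strand, polymerases epsilon and delta extend the strands on the PCNA clamp, which the RFC complex loads, and RPA, FEN1 and ligase 1 protect and join the products. Most of these genes are transcribed in late G1 and S phase by E2F factors, which the RB proteins restrain until cyclin E with CDK2 inactivates them. The summed level of the module in a cell population therefore follows the share of cells that are entering or passing S phase, as background knowledge and not as a result of these libraries.

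Gene reads per library ran from 15678443 to 19604367, so that 3 reads equal 0.153 to 0.191 CPM (read counts scaled to the depth of the library), and the lowest value of a member in any library was 3.61 CPM. Libraries sharing a replicate number were more alike than those sharing a dose. The dose comparisons below are therefore given with the replicate number as a block in the fit as well as without it, and "rose" and "fell" are used only of genes with an adjusted p below 0.05 with that block (edgeR quasi-likelihood test, Benjamini-Hochberg over all 17806 genes). The labels do not say whether the 3 libraries of a dose came from separate cultures. The p-values therefore cover the spread between these libraries and nothing wider, and that spread may be technical. NQO1, a quinone reductase known to respond to electrophiles, served as a check that the doses differ. It averaged 179.6 ± 18.9 CPM at 20 µM and 91.0 ± 5.13 CPM in vehicle (SD, n = 3 each) and rose by 0.98 ± 0.06 (log2 fold change ± SE), with an adjusted p of 1.22e-11 with the block and 0.116 without it. Of sympathetic neuroblast markers, listed with earlier results of these data known, all 12 were detected, with sums of 2875 to 4381 CPM per library. All 12 listed markers of mesenchymal-type neuroblastoma cells were detected too, with sums of 4023 to 6496 CPM. The summed level of 4 Schwann and glial markers was 5.85 to 9.14 CPM per library. SOX10 and GFAP, with 43 and 62 reads over the 9 libraries, were too low to test.

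Promoters of replication genes are known for E2F sites, and 5 of them are printed because the results below turn on these genes: MCM2 for its dose trend, and CDT1, CDC6, E2F2 and RRM2 for their differences between replicate numbers. The windows are 250 bases before to 50 bases after the start site (RefSeq, GRCh38.p14), 5′ to 3′ on the gene's own strand, with every E2F core word in capitals. The search on both strands was for the word TTCCCGC, the word TTGGCGC, the word TTGCCGC and the word TTCGCGC, and matches can overlap. The MCM2 window is chr3:127598161-127598460, plus strand, that of CDT1 chr16:88803539-88803838, plus strand, that of CDC6 chr17:40287629-40287928, plus strand, that of E2F2 chr1:23531184-23531483, minus strand and that of RRM2 chr2:10122318-10122617, plus strand.
MCM2: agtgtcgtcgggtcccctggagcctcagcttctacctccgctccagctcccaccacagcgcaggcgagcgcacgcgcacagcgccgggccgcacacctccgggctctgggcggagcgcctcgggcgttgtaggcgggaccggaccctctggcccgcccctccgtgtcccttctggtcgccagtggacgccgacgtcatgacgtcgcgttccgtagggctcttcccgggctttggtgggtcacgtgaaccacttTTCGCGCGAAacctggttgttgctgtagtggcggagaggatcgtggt
CDT1: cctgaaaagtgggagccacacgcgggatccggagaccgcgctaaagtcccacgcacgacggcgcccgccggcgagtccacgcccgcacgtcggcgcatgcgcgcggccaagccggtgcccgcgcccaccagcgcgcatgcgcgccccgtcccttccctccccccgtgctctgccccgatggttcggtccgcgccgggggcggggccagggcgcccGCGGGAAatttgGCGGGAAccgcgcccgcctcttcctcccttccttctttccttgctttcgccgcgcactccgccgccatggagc
CDC6: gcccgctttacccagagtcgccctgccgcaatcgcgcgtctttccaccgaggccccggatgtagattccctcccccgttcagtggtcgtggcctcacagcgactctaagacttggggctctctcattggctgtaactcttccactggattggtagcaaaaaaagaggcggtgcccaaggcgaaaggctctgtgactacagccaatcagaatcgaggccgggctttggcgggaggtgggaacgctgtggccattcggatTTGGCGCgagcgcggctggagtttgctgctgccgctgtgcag
E2F2: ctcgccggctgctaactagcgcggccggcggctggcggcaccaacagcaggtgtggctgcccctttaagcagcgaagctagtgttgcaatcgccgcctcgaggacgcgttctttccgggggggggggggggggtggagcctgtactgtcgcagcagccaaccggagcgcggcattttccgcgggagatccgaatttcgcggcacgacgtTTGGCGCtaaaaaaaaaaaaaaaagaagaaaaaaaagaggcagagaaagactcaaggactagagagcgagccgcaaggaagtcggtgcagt
RRM2: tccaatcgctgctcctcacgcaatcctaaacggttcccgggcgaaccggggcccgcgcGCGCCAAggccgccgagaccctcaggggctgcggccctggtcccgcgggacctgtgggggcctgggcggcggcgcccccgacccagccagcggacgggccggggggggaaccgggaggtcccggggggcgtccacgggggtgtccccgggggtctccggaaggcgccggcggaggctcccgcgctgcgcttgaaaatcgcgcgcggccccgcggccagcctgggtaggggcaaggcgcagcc
In the MCM2 window the capitals are 2 overlapping words on opposite strands. RRM2 has another window, chr2:10122489-10122788, with 0 E2F words. For a gene with several windows the one with the most E2F words was printed, so the word in the RRM2 window follows from that choice.

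Of the 47 members, 39 had at least 1 window in the RefSeq table (49 windows in all). An E2F word lay in 32 of the 49 windows, 65.3%, against 13.0% of all 35116 windows. Counted by gene, 31 of 39 members (79.5%) had at least 1 word in a window, against 15.3% of 27305 genes. The NF-Y word CCAAT was in a window of 61.5% of the members and 39.7% of all genes. The CHR word TTTGAA, known from promoters of mitotic genes, was in a window of 2.56% of the members, 75.0% of 24 mitosis genes and 18.2% of all genes. The 8 members with a window and no E2F word were ORC6, MCM10, CDC45, POLD1, POLD2, PRIM2, FEN1 and CCNE1, for which these letters are not in the window searched.

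In vehicle, the levels of the members per kilobase of exon (CPM divided by the length of the union of annotated exons, GENCODE 29) spanned from 1.10 ± 0.243 for POLA2, the accessory subunit of polymerase alpha, to 97.0 ± 10.6 for PCNA, the sliding clamp (mean ± SD, n = 3). Exon stretches shared with another gene count in this length, while reads there are ambiguous and left out. Levels per kilobase of members with such stretches, POLA2, MCM2, TYMS and CCNE2 among them, may therefore be understated. The 6 MCM2-7 genes, whose proteins form a ring with 1 copy of each, were not at equal mRNA levels. MCM7 was at 59.1 ± 4.26 and MCM3 at 50.3 ± 4.06 CPM per kilobase, above MCM6 at 25.7 ± 2.76 and MCM4 at 21.9 ± 1.93. MCM2 at 12.9 ± 0.944 and MCM5 at 8.82 ± 0.184 were the lowest of the ring. The vehicle ranges of MCM6 and MCM4 overlapped (23.3 to 28.7 and 20.1 to 24.0), but MCM6 was above MCM4 within each vehicle library. The length used matters for this order: over a single annotated transcript in place of the union of exons, MCM5 was at 18.3 ± 0.383, MCM2 at 17.4 ± 1.28, MCM6 at 28.4 ± 3.04 and MCM4 at 36.5 ± 3.22, while MCM7 and MCM3 kept ranks 2 and 3 of the 47.

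Other complexes were uneven too. Of the GINS subunits, GINS1 was at 8.05 ± 0.882 and GINS2 at 6.50 ± 0.435 CPM per kilobase, and GINS3 and GINS4 at 2.36 ± 0.137 and 2.30 ± 0.352. Within the clamp loader, RFC2 was at 33.9 ± 1.45, RFC3 at 22.0 ± 1.73, RFC1 at 15.4 ± 0.867, RFC4 at 14.9 ± 0.616 and RFC5 at 9.76 ± 1.17. The ribonucleotide reductase subunits RRM2 and RRM1, which make deoxynucleotides, were at 30.7 ± 5.59 and 27.1 ± 2.84. Thymidine kinase TK1 was at 27.7 ± 0.602 and thymidylate synthase TYMS at 5.50 ± 0.877. Of the G1/S regulators E2F1 was the most abundant at 19.7 ± 2.78, and cyclin E2 (CCNE2) was at 1.35 ± 0.0434, against 7.16 ± 0.353 for cyclin E1 (CCNE1).

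At 20 µM citrinin no member of the module passed the test against vehicle, and the 47 genes stayed within a narrow band around their vehicle levels. With the replicate block 0 of 47 members were called, where 2.21% of all genes tested were, and without the block 0 of 47, where the share of all genes was 0%. Unadjusted p was below 0.05 for 7 members with the block and 1 without it in edgeR, and DESeq2 also called 0 members with or without the block. The log2 fold changes ran from -0.24 (MCM2) to 0.12 (GINS4) with the block. Their median was -0.06 with the block and -0.04 without it, where the median of all genes was -0.00 in both fits. Of the members 32 of 47 lay below 0 in the fit without the block, and 50.3% of all genes did. The 95% interval of the change lay within 0.5 of 0 on the log2 scale for 46 of 47 members with the block and for 42 without it. In these bulk libraries, fewer cells in S phase and less RNA per cell cannot be told apart.

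**Figure D1:**
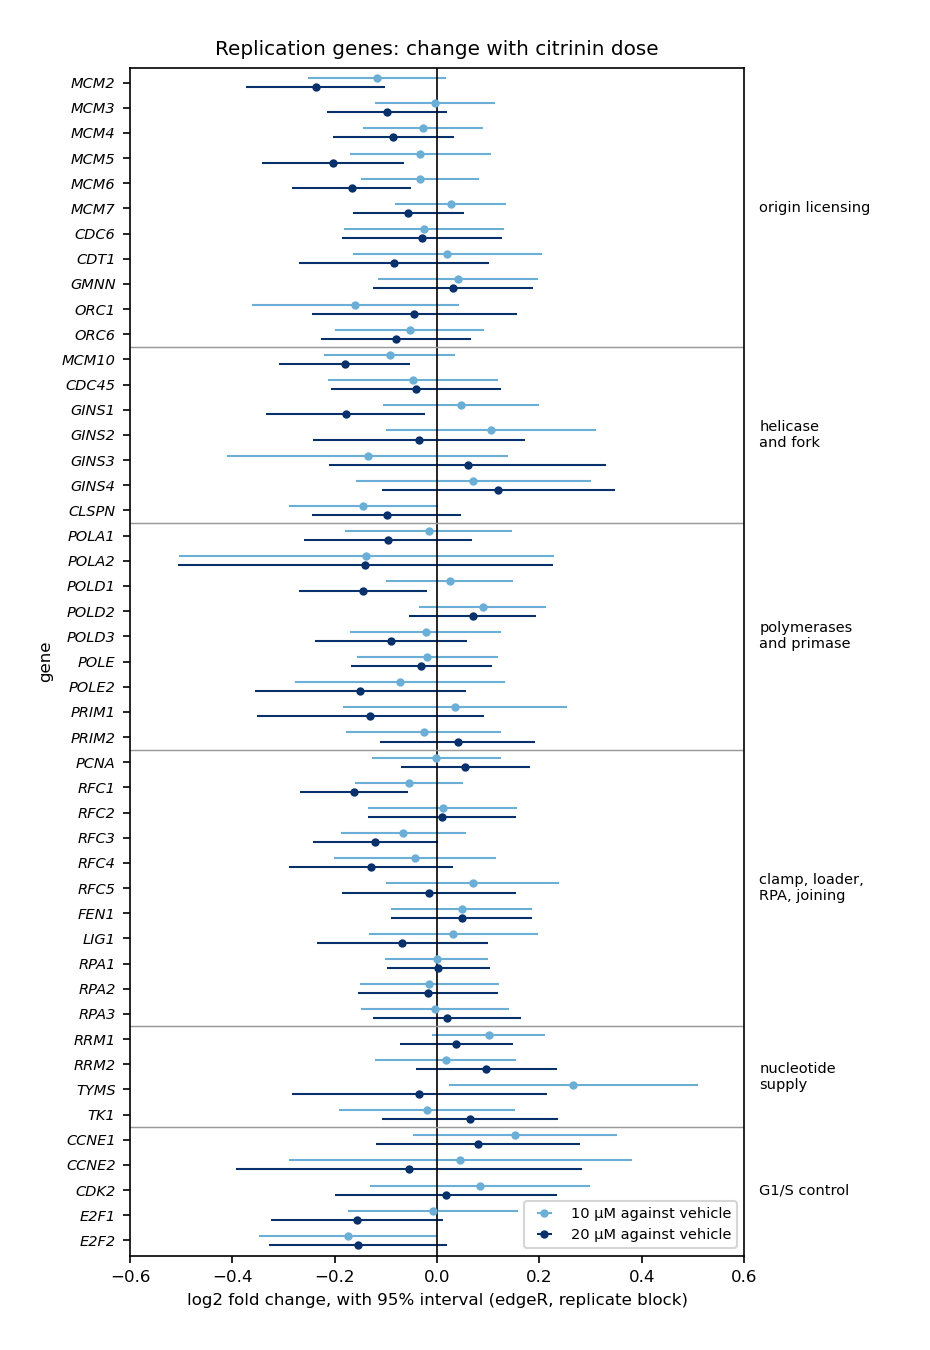
Log2 fold change (x axis) of each of the 47 genes (y axis, grouped by role) at 10 µM (light blue, upper mark) and 20 µM citrinin (dark blue, lower mark) against vehicle, from edgeR with the replicate block. Points are estimates and bars are 95% intervals from 9 libraries, and at 20 µM all but that of POLA2 lie within 0.5 of 0.

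At 10 µM citrinin 0 of 47 members were called against vehicle with the block, where 0.0337% of all genes were, and 0 without it. Of the members 1, TYMS, had an unadjusted p below 0.05 with the block and 0 had one without it, and the median log2 fold change was -0.01 in both fits. Between 20 µM and 10 µM, 0 members were called with the block, where 0.444% of all genes were, and 0 without it, where 0% were. Here 6 members had an unadjusted p below 0.05 with the block and 0 without it, and the median was -0.06 in both. DESeq2 called 0 members in both comparisons with and without the block. The 20 µM and 10 µM comparisons share the vehicle libraries, so they are not independent of each other.

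At 20 µM against vehicle the smallest p among the members was that of the licensing gene MCM2, ahead of the clamp loader gene RFC1 and the licensing genes MCM5 and MCM6. MCM2 (ENSG00000073111, chr3:127598223-127622436 on GRCh38, plus strand), a ring subunit and a common proliferation marker, was at 62.6, 67.8 and 58.6 CPM in vehicle, 64.4, 58.0 and 52.3 CPM at 10 µM and 59.7, 50.3 and 50.7 CPM at 20 µM. All 3 libraries at 20 µM were below the same-numbered vehicle library, and the groups overlapped. The log2 fold change at 20 µM against vehicle was -0.24 ± 0.07 (interval -0.37 to -0.10), with an adjusted p of 0.0576 in edgeR with the block and 1 without it. MCM5 was at 66.3, 63.8 and 64.1 CPM in vehicle, 64.6, 59.5 and 65.8 CPM at 10 µM and 65.2, 47.4 and 57.0 CPM at 20 µM. Its 20 µM replicate 1 lay within the vehicle range and replicates 2 and 3 below it, a change of -0.20 ± 0.07 (adjusted p = 0.131 in edgeR with the block). MCM6, at 95.9, 118 and 104 CPM in vehicle, 98.9, 112 and 99.7 CPM at 10 µM and 96.0, 94.5 and 91.8 CPM at 20 µM, had an estimate of -0.17 ± 0.06 (adjusted p = 0.138 in edgeR with the block). Its 20 µM libraries lay below all 10 µM libraries. Against vehicle, 20 µM replicates 2 and 3 lay below all libraries, and replicate 1 was level with vehicle replicate 1. The 20 µM libraries lay below all 10 µM libraries for MCM6, GINS1 and RFC1, where 2.5% of all genes did. The other ring genes did not pass either, with -0.10 ± 0.06 for MCM3, -0.09 ± 0.06 for MCM4 and -0.06 ± 0.05 for MCM7. Part of the MCM2 exons, 23.6%, is shared with genes on the opposite strand (AC023593.1 and TPRA1). The counts do not separate strands, so reads there are ambiguous and left out.

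Neither loading factor, CDC6 or CDT1, passed with dose. CDC6 was at 43.6, 57.3 and 51.7 CPM in vehicle, 39.5, 51.2 and 59.9 CPM at 10 µM and 46.3, 49.1 and 53.9 CPM at 20 µM. CDT1 was at 38.0, 34.8 and 25.9 CPM in vehicle, 39.5, 31.1 and 29.4 CPM at 10 µM and 42.7, 26.2 and 25.2 CPM at 20 µM. The levels of both genes ran with the replicate number, with CDC6 lowest in the replicate 1 library of each dose and CDT1 highest there. The fold changes at 20 µM against vehicle were -0.03 ± 0.08 for CDC6 and -0.08 ± 0.09 for CDT1. Geminin, the inhibitor of CDT1, was at 43.8, 49.1 and 44.7 CPM in vehicle, 41.8, 48.9 and 51.1 CPM at 10 µM and 48.9, 42.6 and 49.2 CPM at 20 µM. ORC1, the origin recognition subunit that is made anew in each cell cycle, was at 21.1, 20.7 and 21.1 CPM in vehicle, 17.7, 20.4 and 18.3 CPM at 10 µM and 23.2, 18.1 and 19.8 CPM at 20 µM. The 3 ORC1 libraries at 10 µM lay below all 3 vehicle libraries, where 1.94% of all genes did, but the change of -0.16 ± 0.10 did not pass (adjusted p = 1 in edgeR with the block), and at 20 µM it was -0.04 ± 0.10. ORC6 was among 3 members whose 20 µM libraries (33.9, 33.5 and 34.8 CPM) all lay below the vehicle libraries (36.2, 35.7 and 36.1 CPM), where 3.35% of all genes did, with a change of -0.08 ± 0.07.

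No helicase activation or fork gene passed. MCM10, which helps load polymerase alpha at the fork, was at 60.2, 68.7 and 57.6 CPM in vehicle, 55.6, 61.4 and 57.6 CPM at 10 µM and 56.4, 54.7 and 53.2 CPM at 20 µM. Its 20 µM libraries all lay below the vehicle libraries, at -0.18 ± 0.06 (adjusted p = 0.156 in edgeR with the block). CDC45 was at 31.5, 34.3 and 32.0 CPM in vehicle, 29.3, 34.7 and 30.9 CPM at 10 µM and 34.2, 29.7 and 31.1 CPM at 20 µM, with overlapping groups and a change of -0.04 ± 0.08. GINS1 was at 29.3, 36.5 and 32.4 CPM in vehicle, 32.1, 35.6 and 33.5 CPM at 10 µM and 28.4, 31.7 and 26.7 CPM at 20 µM. The GINS1 difference was -0.23 ± 0.08 at 20 µM against 10 µM, where the groups did not overlap (adjusted p = 0.278 in edgeR with the block), and -0.18 ± 0.08 against vehicle. GINS2 was at 19.8, 22.6 and 21.3 CPM in vehicle, 22.9, 25.2 and 20.7 CPM at 10 µM and 24.3, 18.8 and 19.1 CPM at 20 µM, and no dose stood apart. GINS3 was at 12.5, 12.3 and 11.2 CPM in vehicle, 10.6, 11.7 and 10.5 CPM at 10 µM and 16.2, 9.74 and 11.9 CPM at 20 µM. Its replicate 1 library at 20 µM was the highest of the 9 and its replicate 2 library at 20 µM the lowest, and the interval against vehicle was -0.21 to 0.33. Claspin (CLSPN), which links the fork to the checkpoint kinase CHK1, was at 38.8, 48.8 and 46.8 CPM in vehicle, 36.6, 42.8 and 42.2 CPM at 10 µM and 37.8, 39.9 and 47.8 CPM at 20 µM, a change of -0.10 ± 0.07 at 20 µM. GINS4 had the highest estimate of all members at 20 µM, 0.12 ± 0.11, from 13.6 ± 1.06 CPM at 20 µM and 12.6 ± 1.93 CPM in vehicle (SD, n = 3 each).

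No polymerase or primase gene passed. POLA1, the catalytic subunit of polymerase alpha, was at 34.0, 38.5 and 35.8 CPM in vehicle, 34.2, 34.1 and 38.9 CPM at 10 µM and 36.5, 30.6 and 34.5 CPM at 20 µM. POLA2 was at 7.90, 5.51 and 5.46 CPM in vehicle, 5.78, 5.88 and 5.37 CPM at 10 µM and 7.48, 3.61 and 6.17 CPM at 20 µM. It was the least abundant member per kilobase in vehicle, with a spread of 2.19-fold between its highest and lowest library, and 35.1% of its exons are shared with another gene on the same strand (AP000944.2). POLD1, the catalytic subunit of polymerase delta, was at 58.0, 53.1 and 53.9 CPM in vehicle, 60.0, 55.1 and 52.9 CPM at 10 µM and 53.9, 46.5 and 49.1 CPM at 20 µM. The POLD1 estimates were -0.17 ± 0.06 at 20 µM against 10 µM and -0.14 ± 0.06 against vehicle, and neither passed (adjusted p = 0.334 and 0.278 in edgeR with the block). POLD2 was at 119, 109.8 and 114 CPM in vehicle, 123, 120.4 and 121 CPM at 10 µM and 142, 105 and 114 CPM at 20 µM. All 3 POLD2 libraries at 10 µM lay above the vehicle libraries, where 2.06% of all genes did, but the change was 0.09 ± 0.06. POLE2, a subunit of the leading-strand polymerase, was at 16.3, 19.7 and 19.1 CPM in vehicle, 17.2, 18.5 and 16.7 CPM at 10 µM and 17.3, 15.5 and 16.9 CPM at 20 µM. PRIM1, the primase that makes RNA primers, was at 13.0, 15.3 and 13.2 CPM in vehicle, 14.1, 15.9 and 12.5 CPM at 10 µM and 13.3, 14.4 and 10.3 CPM at 20 µM. At 20 µM against vehicle the estimates were -0.15 ± 0.10 for POLE2 and -0.13 ± 0.11 for PRIM1, and the groups of both overlapped. The remaining members of this role had fold changes at 20 µM of -0.09 to 0.04 (POLD3, POLE and PRIM2).

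PCNA, the clamp and the most used marker of S phase, was at 125, 154 and 149 CPM in vehicle, 122, 157 and 149 CPM at 10 µM and 149, 144 and 149 CPM at 20 µM. The groups overlapped and the change at 20 µM against vehicle was 0.06 ± 0.06 (interval -0.07 to 0.18). RFC1, the large subunit of the clamp loader, was at 97.6, 109 and 103 CPM in vehicle, 98.5, 102 and 97.5 CPM at 10 µM and 91.6, 93.8 and 91.6 CPM at 20 µM. It was the member with the largest share of its variance on the log2 scale between doses, 70.7%, and its 20 µM libraries lay below both the vehicle and the 10 µM libraries. Its change of -0.16 ± 0.05 against vehicle had an adjusted p of 0.102 in edgeR with the block. RFC3 was at 59.4, 68.9 and 61.5 CPM in vehicle, 60.1, 62.2 and 58.8 CPM at 10 µM and 54.7, 60.8 and 59.0 CPM at 20 µM, a change of -0.12 ± 0.06. FEN1, the nuclease that trims Okazaki fragments, was at 80.3, 82.3 and 74.1 CPM in vehicle, 74.5, 89.4 and 80.7 CPM at 10 µM and 89.5, 77.7 and 77.5 CPM at 20 µM. RPA3, the smallest subunit of the single-strand binding protein, was at 44.7, 56.4 and 50.8 CPM in vehicle, 43.0, 61.3 and 47.8 CPM at 10 µM and 49.8, 52.9 and 50.7 CPM at 20 µM. Neither FEN1 (0.05 ± 0.07) nor RPA3 (0.02 ± 0.07) differed by more than its standard error. The other 6 members of this role (RFC2, RFC4, RFC5, LIG1, RPA1 and RPA2) had changes at 20 µM of -0.13 to 0.01. Multiply mapped reads were kept apart from the gene counts, and members with processed pseudogenes, PCNA, RFC3 and FEN1 among them, may be undercounted in every library alike.

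No nucleotide supply gene passed with dose. RRM1, the large subunit of ribonucleotide reductase, was at 100.1, 123 and 116 CPM in vehicle, 109, 129 and 125 CPM at 10 µM and 111, 113 and 123 CPM at 20 µM. RRM2, its S phase subunit, was at 136, 159 and 195 CPM in vehicle, 129, 159 and 213 CPM at 10 µM and 159, 144 and 224 CPM at 20 µM. RRM2 was highest in the replicate 3 library of every dose, and its change at 20 µM against vehicle was 0.10 ± 0.07. TYMS, which makes thymidylate, was at 15.9, 13.2 and 11.6 CPM in vehicle, 16.4, 20.6 and 12.5 CPM at 10 µM and 12.8, 14.4 and 12.4 CPM at 20 µM. Its replicate 2 library at 10 µM was the highest of the 9, and the estimates were 0.27 ± 0.12 at 10 µM against vehicle and -0.30 ± 0.12 at 20 µM against 10 µM (adjusted p = 1 and 0.398 in edgeR with the block). Of the TYMS exons 46.6% overlap ENOSF1 and TYMSOS on the opposite strand. Reads there are ambiguous and left out of its count, so TYMS may be undercounted in every library. TK1, the salvage kinase, was at 51.5, 52.6 and 50.4 CPM in vehicle, 47.7, 54.7 and 50.1 CPM at 10 µM and 60.1, 45.6 and 56.0 CPM at 20 µM, a change of 0.06 ± 0.08 at 20 µM.

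The G1/S regulators did not pass either. Cyclin E1 (CCNE1) was at 17.4, 18.1 and 19.2 CPM in vehicle, 18.3, 21.6 and 21.0 CPM at 10 µM and 20.9, 18.8 and 18.2 CPM at 20 µM. Cyclin E2 (CCNE2) was at 5.73, 5.96 and 6.11 CPM in vehicle, 6.01, 5.49 and 6.96 CPM at 10 µM and 4.46, 5.16 and 7.71 CPM at 20 µM. Both cyclins overlapped between all doses, with changes at 20 µM of 0.08 ± 0.10 for CCNE1 and -0.06 ± 0.16 for CCNE2, and 37.1% of the CCNE2 exons overlap opposite-strand genes. CDK2, their kinase, was at 40.7, 32.4 and 35.1 CPM in vehicle, 40.9, 39.8 and 33.9 CPM at 10 µM and 45.9, 27.4 and 37.1 CPM at 20 µM. E2F1, the activating E2F, was at 47.7, 57.0 and 43.4 CPM in vehicle, 47.1, 52.6 and 47.3 CPM at 10 µM and 50.6, 41.8 and 40.4 CPM at 20 µM. E2F2, its close relative, was at 32.0, 28.6 and 22.0 CPM in vehicle, 26.2, 27.2 and 19.8 CPM at 10 µM and 30.1, 24.0 and 20.2 CPM at 20 µM. E2F1 at 20 µM was below the same-numbered vehicle library in replicates 2 and 3 but not in replicate 1, a change of -0.16 ± 0.08. E2F2 was lower at 20 µM than in vehicle in all 3 same-numbered pairs, at -0.15 ± 0.08 (adjusted p = 0.455 in edgeR with the block).

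A slope across 0, 10 and 20 µM found 1 member with the block. MCM2 fell with dose by 0.12 on the log2 scale per 10 µM (SE 0.03, interval -0.18 to -0.05, adjusted p = 0.038 in edgeR with the block and 1 without it). This is 2.13% of the members, against 2.44% of all genes called in the same fit (1.48% lower), a share near the background, and without the block 0 members passed where 0.0225% of all genes did. DESeq2 with the block gave MCM2 an adjusted p of 0.0664. The call was lost in the edgeR fit with the block when vehicle replicate 2 (adjusted p = 0.404), vehicle replicate 3 (0.146), 10 µM replicate 3 (0.062), 20 µM replicate 2 (0.237) or 20 µM replicate 3 (0.128) was left out. It was also lost in that fit without all libraries numbered 2 (adjusted p = 0.478) or all numbered 3 (0.287). With all libraries, the next smallest trend p values belonged to RFC1, MCM5, MCM6 and MCM10. Their slopes were -0.08, -0.10, -0.08 and -0.09, with adjusted p of 0.0801 to 0.121 in edgeR with the block.

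**Figure D2:**
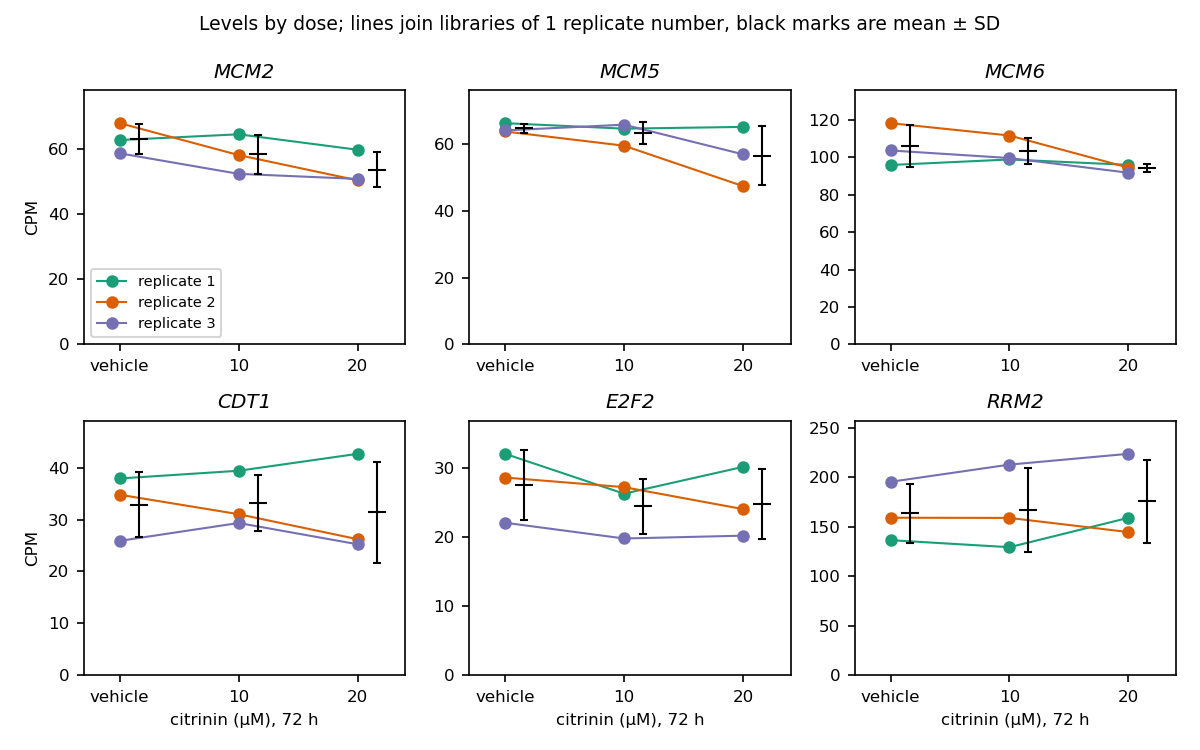
CPM (y axis, from 0) by dose (x axis) for 6 genes. Coloured lines join the 3 libraries of a replicate number, and black marks are mean ± SD of 3 libraries. MCM2 is lower at 20 µM than in vehicle along all 3 lines, while CDT1, E2F2 and RRM2 are separated by replicate number at every dose or nearly so.

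Whole libraries stood apart for the module. Summed over the 47 members, the level was 2879, 3067 and 2864 CPM in vehicle, 2844, 3044 and 2920 CPM at 10 µM and 3051, 2651 and 2842 CPM at 20 µM. The replicate 2 library was the highest of its dose in vehicle and at 10 µM, and the lowest at 20 µM. In that 20 µM library 7 of 47 members were above their own mean over the 9 libraries, with a median deviation of -0.13 on the log2 scale, against 38 of 47 in 10 µM replicate 2 and 39 of 47 in vehicle replicate 2. The 20 µM replicate 1 library stood on the other side, with 29 of 47 members above their mean and a sum just below that of vehicle replicate 2.

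**Figure D3:**
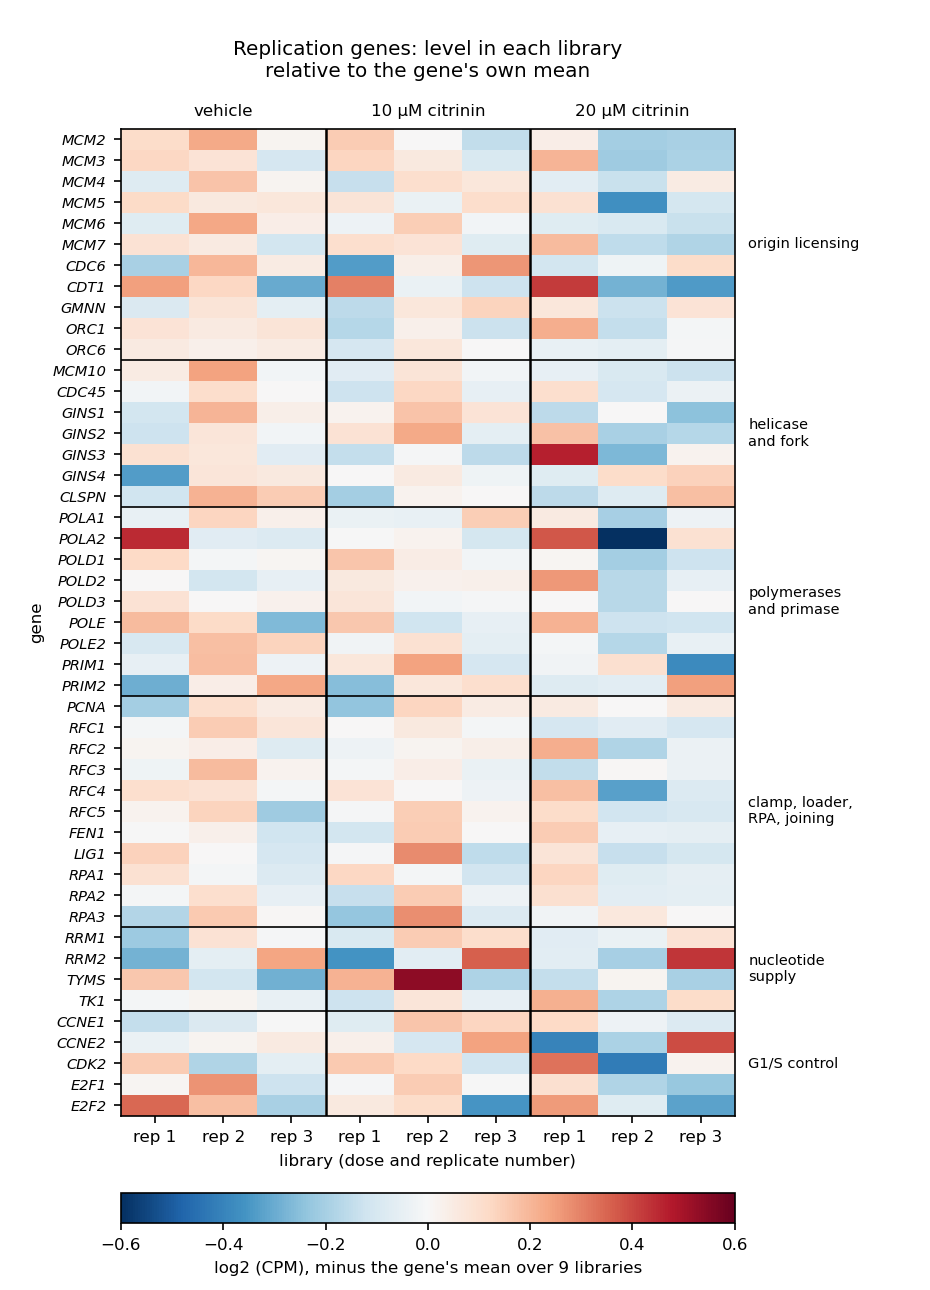
Each cell is log2 CPM of 1 gene (row) in 1 library (column) minus that gene's mean over the 9 libraries, red above and blue below, with rows grouped by role and columns by dose and replicate number. The column of 20 µM replicate 2 is blue but for 7 of 47 genes, and CDT1, CDC6, PRIM2 and RRM2 change colour with the replicate number within every dose.

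Libraries with the same number were then paired. At 20 µM against vehicle the median log2 ratio over the members was 0.08 in pair 1, with 15 of 47 members lower, -0.21 in pair 2, with 44 of 47 lower, and -0.01 in pair 3, with 26 of 47 lower. At 20 µM against 10 µM the medians were 0.09, -0.20 and -0.03 in the same order, with 11, 46 and 28 members lower. At 10 µM against vehicle they were -0.02, -0.02 and -0.01, with 25, 27 and 24 lower. Over all genes the medians of these 9 pairs were between -0.01 and 0.00. Members that were lower in all 3 pairs numbered 11, where 17.7% of all genes were. They were MCM2, MCM5, ORC6, MCM10, GINS1, POLD1, POLD3, RFC1, RFC3, LIG1 and E2F2. GINS4 was the 1 member higher in all 3 pairs, where 17.4% of all genes were.

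**Figure D4:**
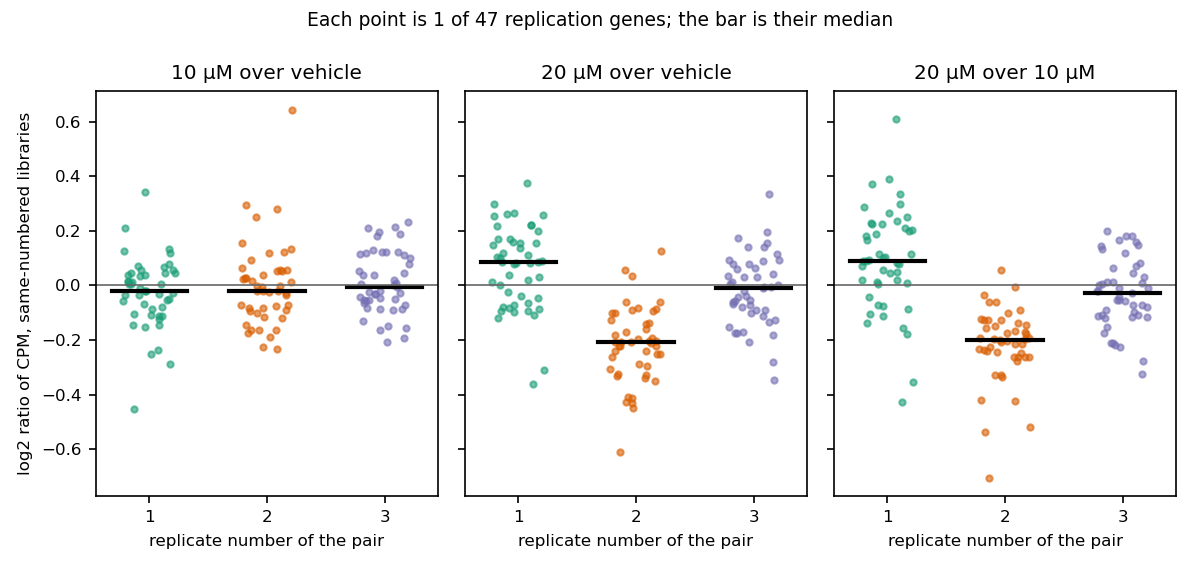
Log2 ratio of CPM (y axis) between libraries with the same replicate number (x axis), 1 point per gene and 3 panels for the 3 dose comparisons, with black bars at the median of the 47 genes. The cloud of pair 2 lies below 0 in both panels with 20 µM, with medians of -0.21 and -0.20, and that of pair 1 lies above it.

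The 20 µM results changed with the library left out. Without 20 µM replicate 2 the median change of the members against vehicle became 0.03 with the block and 0.00 without it. Without 20 µM replicate 1 it became -0.11 with the block and -0.12 without it. In that fit with the block 6 members passed the test lower at 20 µM than in vehicle, MCM2 (-0.28 ± 0.07), MCM3 (-0.19 ± 0.05), MCM5 (-0.30 ± 0.07), MCM6 (-0.23 ± 0.06), MCM10 (-0.23 ± 0.07) and E2F1 (-0.29 ± 0.08), with edgeR adjusted p of 0.00461 to 0.0427, where 2.16% of all genes were called lower, and the 20 µM group then holds 2 libraries. Against 10 µM the same fit called 4 members lower, MCM3, MCM5, MCM7 and E2F1 (adjusted p of 0.0269 to 0.046 in edgeR), where 0.958% of all genes were called lower. MCM2 was also called lower at 20 µM than in vehicle without vehicle replicate 1 (edgeR adjusted p = 0.0359, where 0.7% of all genes were called lower), without 10 µM replicate 1 (0.033, with 1.86% of all genes) and without 10 µM replicate 2 (0.0149, with 2.41% of all genes). RFC1 was called beside it in the last of these (edgeR adjusted p = 0.0461). Without all 3 libraries numbered 1, MCM2, MCM5 and MCM6 passed lower at 20 µM, where 1.59% of all genes did, and without all 3 numbered 2, RRM2 passed higher (0.21 ± 0.06, edgeR adjusted p = 0.0286), where 0.649% of all genes did. In the slope over dose, MCM5 and MCM6 were called beside MCM2 without 20 µM replicate 1, where 1.46% of all genes were called lower, and without all libraries numbered 1, where 1.34% were.

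Genes that work beside the module were counted from lists. Of 51 other replication and S phase genes tested, POLE4, a small subunit of polymerase epsilon, rose at 20 µM against vehicle with the block (0.55 ± 0.14, adjusted p = 0.0289 in edgeR), at 11.6 ± 0.21 CPM at 20 µM and 7.92 ± 0.71 CPM in vehicle, and none fell. The list's median was -0.05, and its pair medians were 0.06, -0.20 and -0.03 for pairs 1, 2 and 3. Of 22 genes of the RB family, kinase inhibitors and G1 drivers, the inhibitor CDKN1A (p21) rose by 0.18 ± 0.05 (adjusted p = 0.0369 in edgeR with the block), and the other 21 did not pass. Of 29 mitosis genes, the proliferation antigen MKI67 (-0.20 ± 0.05, adjusted p = 0.0256) and topoisomerase TOP2A (-0.23 ± 0.05, adjusted p = 0.00517) fell at 20 µM in edgeR with the block. TOP2A averaged 362 ± 29.6 CPM at 20 µM and 424 ± 46.4 CPM in vehicle (SD, n = 3 each), and the list's median was -0.07, with pair medians of 0.05, -0.19 and -0.06. In this fit 2.21% of all genes were called in either direction. The 1 call among the 51 is near that share, and the calls in the other lists were few. Without the block none of the genes of these 3 lists passed, where 0% of all genes did. At 10 µM none passed in either fit.

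More members were called between replicate numbers than between doses. In the median over members, 41.5% of the variance of log2 CPM lay between replicate numbers and 12.5% between doses, against 55.1% and 11.4% in the median over all genes. In a fit with dose as a factor, 20 of 47 members differed between the numbers in some way, where 43.3% of all genes did. Between numbers 2 and 1, 8 members rose and 10 fell, where 36.8% of all genes were called (19.4% higher and 17.4% lower). Between 3 and 1, 6 rose and 9 fell, where 37.2% were called (19.3% higher and 17.9% lower). Between 3 and 2, RRM2 rose and PRIM1, TYMS and E2F2 fell, where 11.7% were called (5.86% higher and 5.88% lower). The 3 libraries of number 2 lay all above those of number 1 for 8 members and all below for 7, where 43.3% of all genes were apart in either direction. For number 3 against 1 the counts were 7 above and 11 below, with 46.5% of all genes apart, and for 3 against 2 they were 3 above and 4 below, with 27.4%. These shares of the members are near or below those of all genes.

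Of the 11 licensing genes, 2 rose and 3 fell in number 2 against number 1, where 36.8% of all genes were called, and 1 rose and 4 fell in number 3 against number 1, where 37.2% were. In number 3 against number 2, 0 of the 11 were called, where 11.7% of all genes were. CDT1 was at 34.8, 31.1 and 26.2 CPM in the replicate 2 libraries, 25.9, 29.4 and 25.2 CPM in the replicate 3 libraries and 38.0, 39.5 and 42.7 CPM in the replicate 1 libraries (vehicle, 10 µM and 20 µM in each). The libraries of numbers 2 and 3 did not overlap with those of number 1, and CDT1 fell by 0.39 ± 0.09 in number 2 and 0.58 ± 0.09 in number 3 against number 1 (adjusted p = 0.00122 and 1.4e-05 in edgeR). CDC6 was at 57.3, 51.2 and 49.1 CPM in the replicate 2 libraries, 51.7, 59.9 and 53.9 CPM in the replicate 3 libraries and 43.6, 39.5 and 46.3 CPM in the replicate 1 libraries (vehicle, 10 µM and 20 µM in each). Without overlap, it rose by 0.28 ± 0.08 in number 2 and 0.36 ± 0.08 in number 3 against number 1. The ring subunits MCM3 (-0.18 ± 0.06 and -0.28 ± 0.06) fell in both contrasts, MCM5 fell in number 2 and MCM2 and MCM7 in number 3 against number 1, while MCM6 rose in number 2 (0.15 ± 0.06).

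RRM2 was highest in the libraries of number 3 at every dose. It was at 159, 159 and 144 CPM in the replicate 2 libraries, 195, 213 and 224 CPM in the replicate 3 libraries and 136, 129 and 159 CPM in the replicate 1 libraries (vehicle, 10 µM and 20 µM in each). The 3 libraries of that number lay above all others, and RRM2 rose by 0.58 ± 0.07 in number 3 against number 1 and by 0.45 ± 0.07 against number 2 (adjusted p = 1.3e-06 and 0.000106 in edgeR). RRM1 rose in numbers 2 and 3 against number 1, by 0.19 ± 0.05 and 0.19 ± 0.05. E2F2 was at 28.6, 27.2 and 24.0 CPM in the replicate 2 libraries, 22.0, 19.8 and 20.2 CPM in the replicate 3 libraries and 32.0, 26.2 and 30.1 CPM in the replicate 1 libraries (vehicle, 10 µM and 20 µM in each). It fell in number 3 against number 1 (-0.51 ± 0.09) and against number 2 (-0.36 ± 0.09). PRIM2 rose by 0.40 ± 0.07 and POLE fell by 0.33 ± 0.07 in number 3 against number 1. POLA2 fell by 0.50 ± 0.18 in number 2 against number 1, at 5.51, 5.88 and 3.61 CPM in number 2 and 7.90, 5.78 and 7.48 CPM in number 1. RPA3 (0.31 ± 0.07) and PCNA (0.20 ± 0.06) rose and CDK2 (-0.36 ± 0.10) fell in that contrast.

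These differences went with the GC content of the transcripts, which ran from 36.9% (CCNE2) to 65.0% (POLD1) over the members. Over the 47 members the log2 fold change correlated with GC content at Pearson r = -0.57 for number 2 against 1 and -0.59 for number 3 against 1 (Spearman -0.60 in both). Over 17412 genes Pearson r was -0.12 and -0.17 and Spearman rho was -0.25 and -0.26. The correlation is across genes, which are not independent replicates, and all genes share the same 9 libraries. Of 18 members above 50% GC, 0 rose and 7 fell in number 2 against 1, and of the 29 others 8 rose and 3 fell. Of all genes in that contrast 13.1% rose and 26.7% fell above 50% GC, and 24.9% rose and 10.3% fell among the others. In number 3 against 1, 0 rose and 6 fell of the 18 members, and 6 rose and 3 fell of the 29. Of all genes 12.9% rose and 26.9% fell above 50% GC there, and 24.9% rose and 11% fell among the others. The limit of 50% was chosen after the values were seen. With a GC-dependent offset per library, also added after seeing the data, 9 members were called for number 2 against 1, 7 of them among the 18 called before, where 34.1% of all genes were called, and 13 for number 3 against 1, 11 of them among the 15 called before, where 34.7% were. CDT1, CDC6, MCM3 and RPA1 were called in both contrasts with and without the offset, and RRM2, TYMS and E2F2 in both contrasts of number 3. The CDT1 change was -0.22 ± 0.08 for number 2 against 1 and -0.40 ± 0.08 for number 3 against 1 with the offset, in place of -0.39 ± 0.09 and -0.58 ± 0.09. Calls lost with the offset were those of MCM5, MCM6, GINS1, CLSPN, POLA2, POLD1, POLD2, POLE, PRIM2, PCNA and RRM1 for number 2 against 1, and those of MCM2, PCNA, RRM1 and CDK2 for number 3 against 1. The RRM1 change was 0.11 ± 0.05 in both contrasts with the offset (adjusted p = 0.107 and 0.103 in edgeR). After the offset r was -0.13 and -0.26. The offset was fitted on GC content to these same counts, so a weaker correlation was built in and is not a result.

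**Figure D5:**
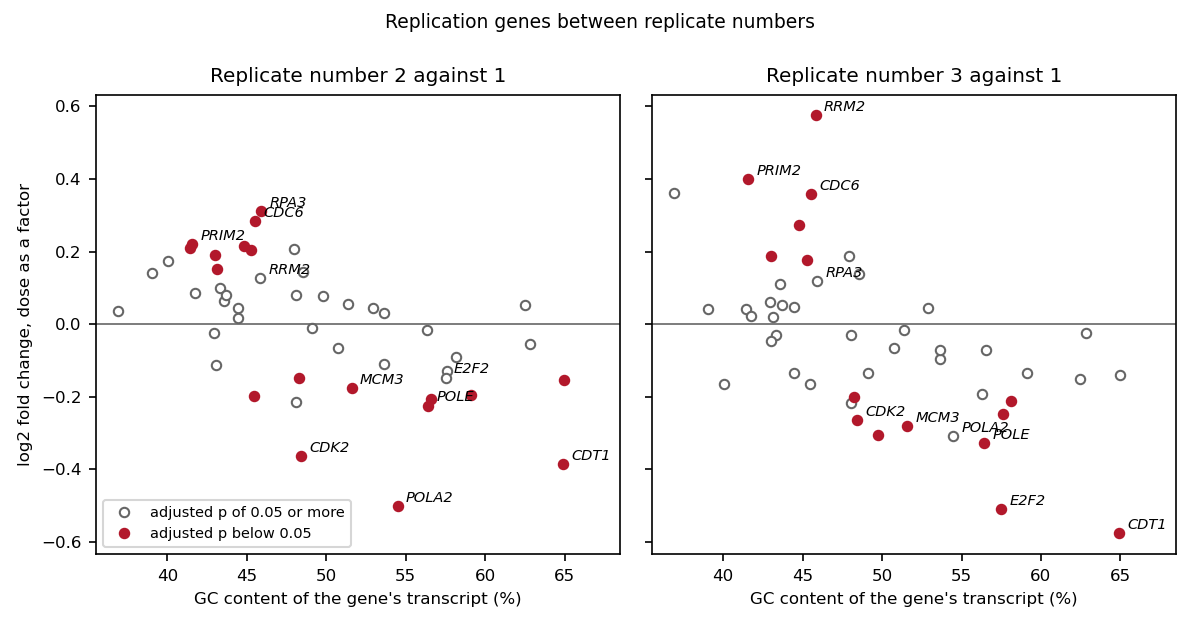
Log2 fold change between replicate numbers with dose as a factor (y axis) against GC content of the transcript in percent (x axis), 1 point per gene, for number 2 against 1 (left) and 3 against 1 (right). Red points have an adjusted p below 0.05, and above 50% GC none of the red points lies above 0.

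Other lists also moved with the replicate number, and their part in the differences of the members was not tested. Of 29 mitosis genes 23 fell in number 3 against number 2 (median -0.28), where 5.88% of all genes fell. In number 2 against number 1, 12 of them rose and 1 fell, where 19.4% of all genes rose and 17.4% fell. In number 3 against number 1, 1 rose and 10 fell, where 19.3% of all genes rose and 17.9% fell. The summed level of the mitosis genes was 2277 to 2473 CPM in the number 3 libraries, against 2661 to 3113 CPM in number 2. CDKN1A was higher in numbers 2 and 3 than in number 1 by 1.34 ± 0.05 and 1.48 ± 0.05. Its list was mixed in these contrasts. The inhibitors CDKN1C (-0.39 ± 0.11 and -0.70 ± 0.11) and CDKN2C (-0.37 ± 0.06 and -0.25 ± 0.06) fell in both. Of the G1 drivers MYC fell (-1.60 ± 0.08 and -1.58 ± 0.08) and CCND1 rose (0.55 ± 0.04 and 0.38 ± 0.04). Of 12 sympathetic markers 8 fell and 4 rose in number 2 against 1, and 8 fell and 2 rose in number 3 against 1. Their sums were 3591 to 4381 CPM in number 2, 2875 to 3486 CPM in number 3 and 3864 to 4250 CPM in number 1. Of 12 markers of mesenchymal-type neuroblastoma cells 10 rose in number 3 against 2, where 5.86% of all genes rose. The other contrasts were mixed. In number 3 against 1, FN1, CD44, YAP1, TGFBI, ANXA2, NOTCH2 and WWTR1 rose and VIM, PRRX1, SNAI2, COL1A1 and COL1A2 fell. In number 2 against 1, CD44 and NOTCH2 rose and VIM, FN1, PRRX1, SNAI2, COL1A1, COL1A2 and TGFBI fell. Sums were 5965 to 6496 CPM in number 3, 4023 to 4552 CPM in number 2 and 5335 to 5511 CPM in number 1. FN1 made up much of them, at 3301 CPM on average in vehicle. With dose, 9 of the 12 sympathetic markers fell and 5 of the 12 mesenchymal markers rose at 20 µM against vehicle with the block, where 2.21% of all genes were called in either direction, and 0 of these markers were called without the block.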

How the data were processed

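RNA-seq was measured in 9 libraries of SH-SY5Y cells, grouped by the dose and numbered by the replicate number in their titles. Per the submitters' processing notes, FastQC, cutadapt, STAR and edgeR were used on GRCh38. Which versions and which gene annotation they used was not given in the sources used here. Raw counts per gene were deposited by the authors, unstranded and for each strand. The 2 strands were about equally frequent (ratio 1.007 to 1.020), so the joint count was used. Reads in stretches shared with antisense genes were ambiguous and counted for neither gene. Assigned reads were 76.4% to 78.0% of all. Unmapped, multiply mapped and ambiguous reads, and reads in no annotated feature (rows naming no gene), stayed out of library sizes and tests.

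From the counts, CPM with TMM factors (0.989 to 1.013) and edgeR quasi-likelihood tests (edgeR 4.0.16, limma 3.58.1, R 4.3.3, robust) were computed on the 17806 genes that passed filterByExpr at a minimum count of 10, with Benjamini-Hochberg adjusted p below 0.05 over all of them. The dose fits used 3 groups without a covariate (6 residual degrees of freedom), and with the replicate number as a block (4). The numbers come from the titles and were taken to pair the libraries, because deviations from the group mean correlated at 0.457 to 0.685 in all 9 same-numbered pairs, and at -0.545 to 0.139 in the 18 others. The typical coefficient of variation was 0.195 without the block and 0.0552 with it. Fold changes and standard errors of dose comparisons in the text are those with the block unless stated. Replicate numbers were compared with dose as a factor. Alternatives were DESeq2 1.42.0, other size factors, no filter, each library or number left out, and a GC offset per library (lowess, span 0.3, 17412 genes), added after seeing the data. The scripts were tested on simulated data. Intervals cover 95%.

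The members and lists were chosen with earlier results of these data known. By the rule for naming, 32 members are described in every library: those with central roles, those called in any dose fit, the 2 smallest p in each direction per dose comparison, and the 3 largest changes per contrast of numbers; others are given by range or where a count of few members names them. Identifiers matched symbols for 61369 of 61487. Coordinates, exon lengths, overlaps and GC content are from GENCODE 29 on GRCh38, and promoter windows from RefSeq on GRCh38.p14. A deposited normalized table was not used.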

Additional observations from a re-analysis of the deposited data

How the results depend on the processing

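The replicate block moved the number of genes called over the whole table from 0 to 393 at 20 µM against vehicle, 0 to 6 at 10 µM, 0 to 79 between the doses and 4 to 434 for the trend, and among the 47 members it changed only the trend, to 1 call. With the GC offset and the block 1 member, MCM2, was called at 20 µM against vehicle and 1 in the trend. Between replicate numbers 2 and 1, DESeq2 called 10 members and the GC offset 9, in place of 18. Of all genes 34.1% were called there with the GC offset and 36.8% before it. Between 3 and 2, DESeq2 called 2 and the fit without a dose term 2, in place of 4. Leaving out each library or number in turn gave 0 to 6 members at 20 µM against vehicle, 0 to 4 at 20 µM against 10 µM, 0 to 3 for the trend, 10 to 16 for number 2 against 1 and 2 to 9 for number 3 against 2. The share of all genes called also moved between these refits. With the block at 20 µM against vehicle, 0.7% were called lower without vehicle replicate 1. Without 10 µM replicate 2, 2.41% were. For DESeq2 and the fit without a dose term that share is not given here. The counts of members in these refits therefore do not tell a change in the members from a change in the share of all genes called. The median change at 10 µM against vehicle ran from -0.0435 to 0.0359. The cause was not tested. The MCM2 slope over dose stayed below 0 in the refits run. The POLD1 change for number 2 against 1 turned from -0.15 ± 0.06, called, to 0.01 ± 0.06 with the GC offset. Of 32 members described, 12 at 20 µM against vehicle kept their sign in all 28 refits. With 3 libraries a dose the median standard error of a member was 0.07 with the block, and an estimate as far from 0 as that of MCM2 (-0.24 ± 0.07 at 20 µM against vehicle) still did not pass.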
